A study of Vitis vinifera with 11 samples.

Results

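In grapevine (Vitis vinifera) shoots, 32 of 25771 measured genes were expressed in leaves and tendrils and were low in every inflorescence. They were chosen from the values themselves: the lowest of the 5 leaf and tendril libraries had to reach at least 5 RPKM (reads for each kilobase of the gene, per 1e6 mapped) and at least 3 times the highest of the 6 inflorescence libraries. The low level in inflorescences is therefore a description of the choice and carries no test.

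Messenger RNA was sequenced from 11 libraries of vines grown under controlled conditions. The 6 inflorescence libraries came from nodes 1, 2 and 3, counted from the shoot tip, with 1 library per node from each of the picovine genotypes 06C021V0046 and 06C008V0003. The 3 tendril libraries came from nodes 1, 2 and 3 of the control vine Pinot Meunier L2, 1 library per node. The 2 leaf libraries were pools over the nodes, 1 from 06C021V0046 and 1 from Pinot Meunier L2. Both pools carry a label placing them opposite inflorescences, although only tendrils are described for Pinot Meunier L2. No leaf library of 06C008V0003 and no inflorescence of Pinot Meunier L2 was among them, and no label says whether a library came from 1 plant or several. Of the 5 libraries on the high side, 4 were Pinot Meunier L2, whereas all 6 on the low side were picovine, so the choice also favours genes that are higher in Pinot Meunier L2 whatever the organ. Only the 06C021V0046 leaf pool holds genotype constant against inflorescences.

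Grapevine tendrils and inflorescences arise from the same kind of uncommitted meristem beside the shoot apex, and a vine makes one or the other depending on its hormonal and developmental state. Leaves form separately at the flank of the apex. Picovines are dwarf vines that bear inflorescences at nodes where other vines bear tendrils. Genes shared by leaves and tendrils but low in inflorescences thus set 2 vegetative organs against the reproductive counterpart of one of them. In whole-organ RNA, fewer expressing cells and less RNA per cell cannot be told apart.

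Sequencing depth, worked back from the RPKM values, was 11.4 to 14.6 M reads (M, 1e6) in inflorescences, 9.92, 7.36 and 15.2 M in the tendrils of nodes 1, 2 and 3, 9.21 M in the picovine leaf pool and 15.0 M in the other. The organ labels were checked against marker genes. The floral organ genes MADS9, TM6, AP3, AG and MADS2 summed to between 1141 and 2055 RPKM in inflorescences, to at most 1.15 RPKM in tendrils, and to 5.01 and 2.37 RPKM in the leaf pools. The tendril and inflorescence genes AP1 and VFUL-L summed to at least 188 RPKM in tendrils and at most 5.0 RPKM in leaves. Of the chloroplast genes, PSBP1, a photosystem II protein, had 752, 868 and 175 RPKM in the tendrils of nodes 1, 2 and 3, 337 and 637 RPKM in the leaf pools and 96.0 to 336 RPKM in inflorescences. CHLH, a subunit of magnesium chelatase in chlorophyll synthesis, was also lowest at node 3 among the tendrils (172, 154 and 74.3 RPKM). NDHM (10.03, 9.10 and 10.8 RPKM), PSBP2 (30.8, 34.3 and 36.3 RPKM) and PIFI (4.11, 5.49 and 6.93 RPKM) were highest there. In the leaf pools CHLH had 102 and 177 RPKM, NDHM 36.3 and 27.5 RPKM, PSBP2 73.3 and 46.3 RPKM and PIFI 16.8 and 4.95 RPKM. In inflorescences these 4 genes had 8.25 to 91.3, 4.88 to 12.1, 22.7 to 46.5 and 6.14 to 13.5 RPKM. Their tendril and inflorescence values thus overlapped.

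None of the 32 genes carried a name. The RefSeq gene table of the assembly ASM3070453v1 held 27 of them, all under locus numbers, and 5 had no entry and are given by gene number. No role can therefore be attached to any member, and they are described by level, pattern and genomic neighbourhood.

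Together the 32 genes summed to between 88.0 and 106 RPKM in the 6 inflorescence libraries. Their sum was 1238 RPKM in the 06C021V0046 leaf pool, 7109 RPKM in the Pinot Meunier L2 leaf pool, and 7558, 10204 and 8296 RPKM in the tendrils of nodes 1, 2 and 3. Expressed as a share of each library's summed RPKM, this was 0.0111% to 0.0149% in inflorescences, 0.177% and 1.10% in the leaf pools, and 1.19%, 1.52% and 1.22% in tendrils. The set thus took more than 1% of the summed signal in all 4 Pinot Meunier L2 libraries and much less in the 06C021V0046 leaves.

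**Figure D1:**
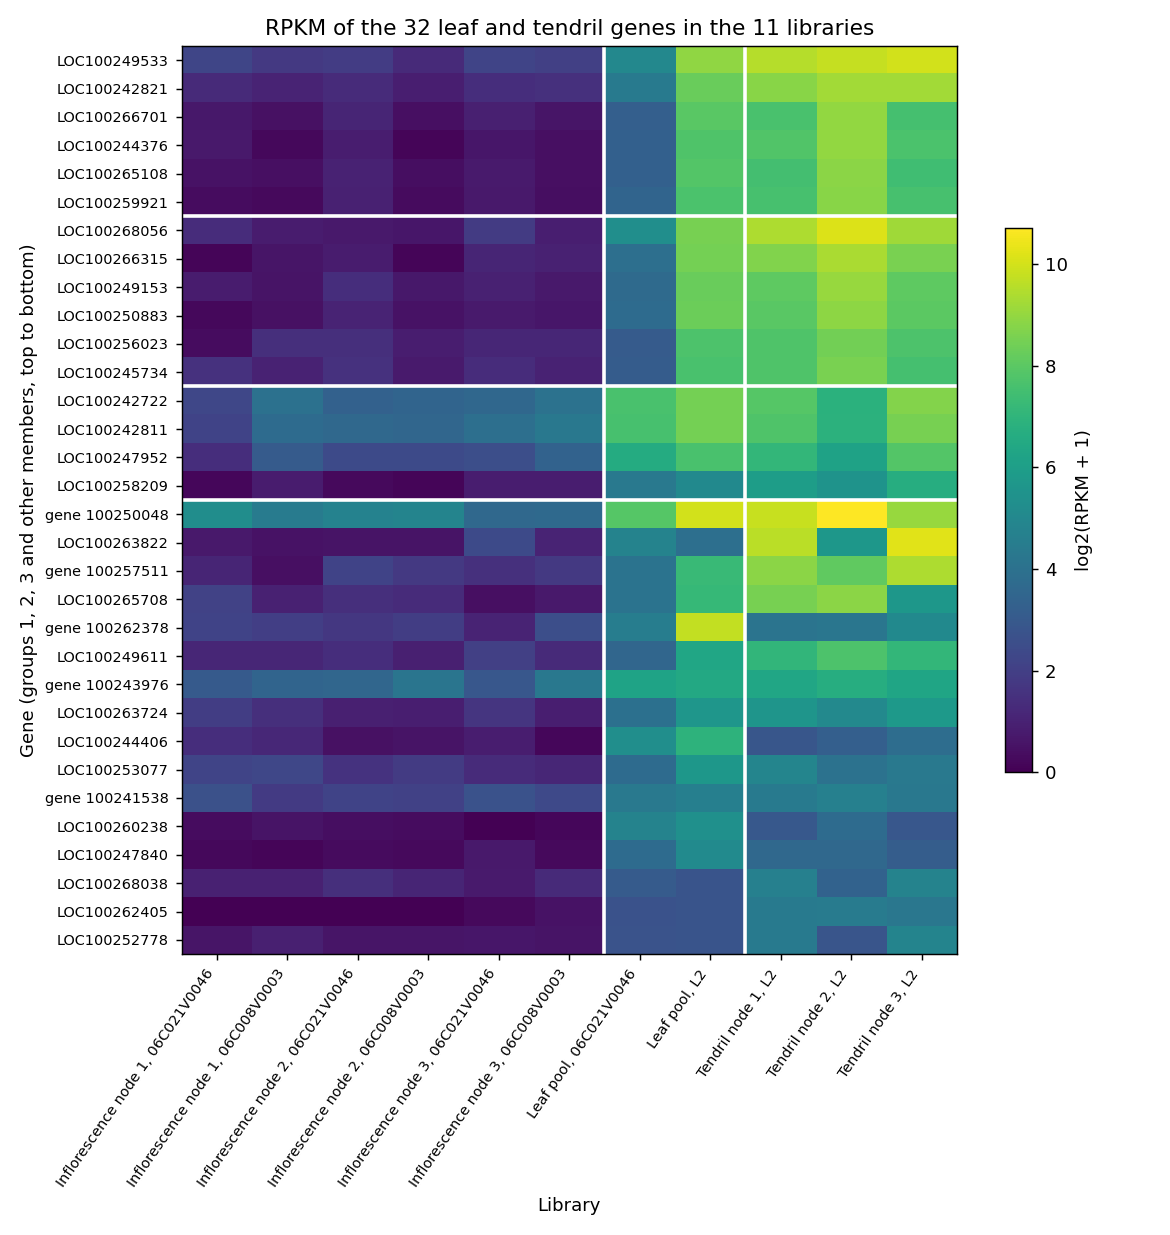
Colour gives log2(RPKM + 1) of each of the 32 genes (rows) in each of the 11 libraries (columns). White lines separate 3 groups of neighbouring genes from the other 16 members, and inflorescences, leaf pools and tendrils from each other. The 12 genes of the first and second groups stay between 7.45 and 38.3 RPKM in the 06C021V0046 leaf pool and reach at least 174 RPKM in every Pinot Meunier L2 library.

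The lowest leaf or tendril value was 3.18 to 23.9 times the highest inflorescence value, with a median of 6.80 over the 32 genes. Closest to the 3-fold limit on the inside were LOC100263822 (3.18), LOC100253077 (3.30) and gene 100262378 (3.36). Closest on the outside were LOC100264788 (2.96), LOC100261583 (2.91) and LOC100249139 (2.88). The mean over inflorescences was under 1 RPKM in 13 of the members and under 5 RPKM in 27. The leaf pool of 06C021V0046 was the lowest of the 5 leaf and tendril libraries in 22 members. The share of this pattern over all genes was not worked out. Without the 06C021V0046 leaf pool the same rule finds 91 genes, among them all 32, and without the Pinot Meunier L2 leaf pool it finds the same 32.

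Many members lay beside each other. In the order of genes and pseudogenes in the RefSeq table, 16 of the 27 members with an entry fell into 3 groups in which consecutive members were separated by at most 9 other genes. The widest gap seen between them was 3 genes. That is 59.3% of the 27. By the mirrored rule for genes low in tendrils (67 genes, 53 with an entry) 22.6% fell into groups by the same limit of 9 genes, and by that for genes low in leaves (19 genes, 18 with an entry) 22.2%. These shares are descriptions without a test. Neighbouring genes can be near-identical copies, and how the authors counted reads that match several copies is not given in the sources used here, so values within a group are uncertain as to the copy.

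The first group held LOC100266701, LOC100244376, LOC100249533, LOC100265108, LOC100259921 and LOC100242821, in that order. LOC100266701 is listed as a pseudogene in the table. LOC100249533, the most abundant, had 1.39, 2.92 and 3.75 RPKM as the lowest, median and highest inflorescence value, 31.4 RPKM in the 06C021V0046 leaf pool, 489 RPKM in the Pinot Meunier L2 leaf pool, and 729.7, 878 and 1010.1 RPKM in the tendrils of nodes 1, 2 and 3. LOC100242821 had 0.844, 1.46 and 1.81 RPKM in inflorescences, 19.9 and 307 RPKM in the leaf pools in the same order, and 451, 599 and 602 RPKM in tendrils. For both genes the 06C021V0046 leaf pool stood between the inflorescences and the 4 Pinot Meunier L2 libraries, overlapping neither.

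The other 4 genes of the group shared a second shape, with a peak in the tendril of node 2. LOC100266701 had 201, 509 and 188 RPKM in the tendrils of nodes 1, 2 and 3, LOC100244376 had 220.2, 502 and 205 RPKM, LOC100265108 had 183, 463 and 174 RPKM, and LOC100259921 had 195, 444 and 194 RPKM. Node 2 stood at 2.28 to 2.62 times the mean of nodes 1 and 3 in these 4 genes, against 1.01 and 1.14 times in LOC100249533 and LOC100242821. In the leaf pools these 4 genes had 8.42 to 9.94 RPKM in 06C021V0046 and 202 to 251 RPKM in Pinot Meunier L2. LOC100244500 and LOC100254809, which lie inside the same stretch, showed neither shape. LOC100244500 had 3.65 RPKM in the Pinot Meunier L2 leaf pool and at most 0.297 RPKM in tendrils, and LOC100254809 had its highest values in inflorescences (14.5 to 22.0 RPKM).

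The second group held LOC100266315, LOC100256023, LOC100249153, LOC100250883, LOC100245734 and LOC100268056. LOC100268056 was the most abundant, with 0.580, 0.833 and 2.63 RPKM as the lowest, median and highest inflorescence value, 38.3 RPKM in 06C021V0046 leaves, 371 RPKM in Pinot Meunier L2 leaves, and 667, 1135 and 590.1 RPKM in the tendrils of nodes 1, 2 and 3. LOC100266315 had 0.0982, 0.657 and 1.16 RPKM in inflorescences, 14.0 and 352 RPKM in the leaf pools, and 413, 652 and 376 RPKM in tendrils. LOC100250883 had 0.187, 0.496 and 1.09 RPKM, 12.5 and 312 RPKM, and 248, 478 and 258 RPKM. In all 6 genes the tendril of node 2 was the highest library, at 1.61 to 2.04 times the mean of nodes 1 and 3.

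Levels within the second group were closer to each other, in ratio, in the Pinot Meunier L2 leaf pool than in that of 06C021V0046. In the Pinot Meunier L2 leaf pool the 6 genes had 196 to 371 RPKM, and in the 06C021V0046 leaf pool 7.45 to 38.3 RPKM. LOC100268136, which lies between LOC100249153 and LOC100250883, had the same shape but was not a member, because its highest inflorescence value of 3.04 RPKM left a ratio of 2.87. It had 8.70 and 156 RPKM in the leaf pools and 163, 376 and 142 RPKM in tendrils. Gene lengths implied by the RPKM values were 634 to 820 bases in the first group and 569 to 1421 bases in the second, against a median of 1501 bases over 10852 genes with at least 5 RPKM in all leaf and tendril libraries and a length that could be worked back.

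The third group held LOC100242722, LOC100242811, LOC100247952 and LOC100258209, and LOC100247952 is listed as a pseudogene. LOC100242722 had 3.81, 10.6 and 15.7 RPKM as the lowest, median and highest inflorescence value, 202 RPKM in 06C021V0046 leaves, 353 RPKM in Pinot Meunier L2 leaves, and 236, 115 and 427 RPKM in the tendrils of nodes 1, 2 and 3. LOC100242811 had 3.48, 11.9 and 18.5 RPKM, 195 and 360.4 RPKM, and 214, 119 and 371 RPKM. These 2 genes were nearly equal in most libraries, and LOC100247952 followed them at a lower level, with 96.2 and 199.9 RPKM in the leaf pools and 135, 71.1 and 227 RPKM in tendrils.

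In all 4 genes of the third group the tendril of node 2 was the lowest of the tendrils, at 0.346 to 0.552 times the mean of nodes 1 and 3. It was also the shallowest library. The leaf pools differed by only 1.71 to 2.08 times, and the 06C021V0046 leaf pool stood 13.9 to 24.2 times above the highest inflorescence of its own genotype. LOC100258209 had the largest separation of all members. It had 0.117, 0.492 and 0.806 RPKM in inflorescences, 19.2 and 33.0 RPKM in the leaf pools and 61.6, 44.6 and 99.97 RPKM in tendrils, with 52 reads in all 6 inflorescence libraries and 4117 reads in the 5 others.

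The remaining 16 members stood alone or had no table entry. Gene 100250048 was the most abundant of all 32, with a mean of 878 RPKM over leaves and tendrils. It had 11.4, 23.4 and 37.0 RPKM in inflorescences, 239 and 1027 RPKM in the leaf pools and 905, 1684 and 533 RPKM in tendrils. LOC100262405 was the member nearest to absence from inflorescences, with no read in the 4 libraries of nodes 1 and 2 and 3 reads in those of node 3. It had 5.56 and 5.83 RPKM in the leaf pools and 19.7, 20.9 and 18.3 RPKM in tendrils, and the 3 tendrils stood above both leaf pools. Gene 100241538 and gene 100243976 were the most even across the high libraries, at 18.6 to 24.4 RPKM and 73.3 to 101 RPKM.

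The 2 leaf pools, 1 library each and so without a test, split the members. The Pinot Meunier L2 pool was higher in 30 of 32 members, by at least 3 times in 20 (62.5%) and by at least 10 times in 12 (37.5%). Among the 11150 genes with at least 5 RPKM in every leaf and tendril library, the corresponding shares were 41.6%, 2.81% and 0.215%. The median ratio of the Pinot Meunier L2 to the 06C021V0046 pool was 5.93 over the members and 0.911 over the 11150 genes. Because the choice of members favours Pinot Meunier L2, these shares are no independent evidence of a genotype difference.

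Gene 100262378 held the highest ratio, 38.1, with 862 RPKM in the Pinot Meunier L2 leaf pool against 22.6 RPKM in that of 06C021V0046 and 16.4, 17.5 and 33.1 RPKM in tendrils, so 1 library alone was high. In the first and second groups all 12 genes had ratios between 9.67 and 29.8. In 15 members every Pinot Meunier L2 library, leaf or tendril, was at least 3 times the 06C021V0046 leaf pool. Both pools are leaf, so their difference in these genes is not between organs, but genotype and library cannot be told apart in it. All tendrils were Pinot Meunier L2 and all inflorescences picovine, so between tendrils and inflorescences organ and genotype cannot be told apart. In 12 members the leaf pools lay within 3 times of each other, among them the 4 genes of the third group, LOC100262405, LOC100260238, LOC100247840, LOC100252778, LOC100268038, gene 100241538 and gene 100243976. LOC100263822 completes the 12 and was higher in 06C021V0046 leaves, with 26.6 against 13.9 RPKM.

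Within 06C021V0046 alone, the leaf pool stood 3.45 to 85.2 times above the highest of the 3 inflorescence libraries of that genotype, with a median of 8.38. Both sides are the same genotype, but the rule fixed a ratio of at least 3 for every member. Only the size of the ratio is described, and it carries no test. The highest value belonged to LOC100260238, with 26.5 RPKM in the leaf pool and 0 to 0.311 RPKM in the 3 inflorescences.

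**Figure D2:**
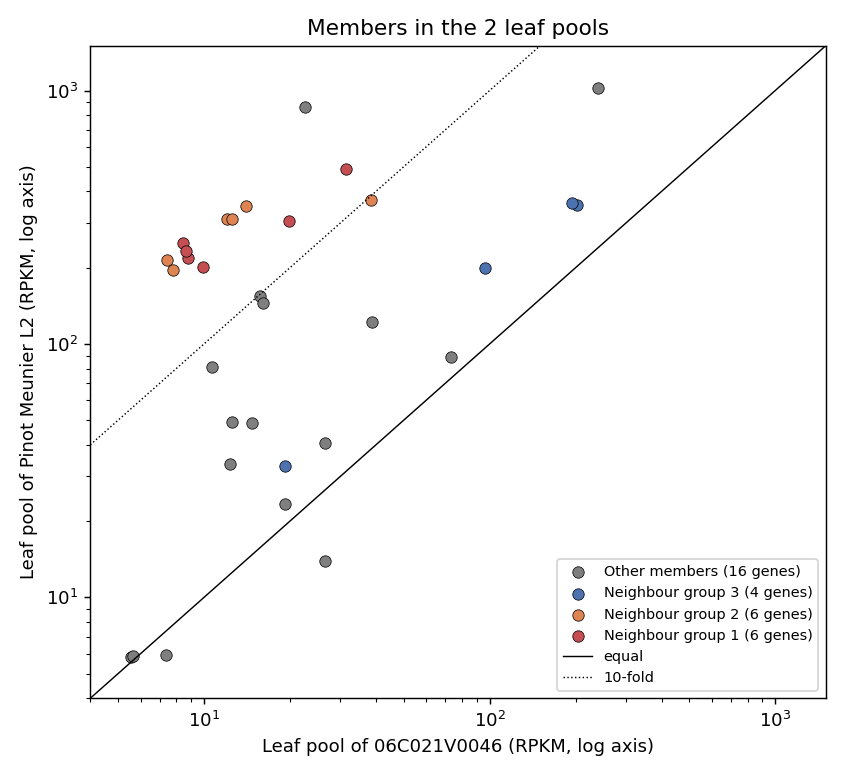
Each point is a member, with its RPKM in the leaf pool of 06C021V0046 on the horizontal log axis and in that of Pinot Meunier L2 on the vertical log axis, 1 library each. The solid line marks equal values and the dotted line a ratio of 10, and the first and second neighbour groups lie along the dotted line or above it while the third group lies near the solid line.

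Tendrils were then compared with the leaf pools. The rule did not use the difference between them, but it took the lowest value over the same 5 libraries and favours Pinot Meunier L2, which is all 3 tendrils and 1 of the 2 leaf pools. The members' counts and median are therefore not independent of the choice. Of the 32 members, 8 differed in limma (adjusted p under 0.05 over 19761 genes), 6 of them higher in tendrils and 2 lower. Over all genes tested 2.89% were called higher and 9.71% lower, 12.6% in all. The median change was 1.83 over the members, on the log2(RPKM + 1) scale, and -0.14 over all genes. The 3 tendril libraries all stood above both leaf pools in 11 members and all below both in 3, against 10.8% and 27% of all genes tested.

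LOC100263822 showed the largest change, 4.16 ± 1.07 (SE, adjusted p = 0.0288, limma). Its tendrils had 771, 50.3 and 1209 RPKM at nodes 1, 2 and 3 and its leaf pools 26.6 and 13.9 RPKM, so every tendril was above both pools although the tendril of node 2 was far below the other two. Gene 100257511 was next (3.11 ± 0.77, adjusted p = 0.0249), with 456, 270.4 and 682 RPKM in tendrils against 15.7 and 155 RPKM in the pools. LOC100262405 rose by 1.62 ± 0.25 (adjusted p = 0.00223).

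LOC100242821 of the first group (2.77 ± 0.81, adjusted p = 0.0484), LOC100268056 of the second (2.66 ± 0.76, adjusted p = 0.0434) and LOC100249611 (2.33 ± 0.65, adjusted p = 0.0402) were also higher in tendrils. LOC100249611 had 131, 208 and 134 RPKM in tendrils and 10.7 and 80.9 RPKM in the leaf pools. Without the 06C021V0046 leaf pool the changes of these 3 genes were 0.83, 1.04 and 0.92 (adjusted p of 0.188, 0.377 and 0.322), and without any other single library except the Pinot Meunier L2 leaf pool each also missed the threshold (adjusted p between 0.051 and 0.168). Gene 100257511 missed it without the 06C021V0046 leaf pool (1.49, adjusted p = 0.216) or the tendril of node 1 or 3 (2.41 in both, 0.201 and 0.202). LOC100263822 missed it without the same 3 libraries (4.61, 1.34 and 1.34, adjusted p of 0.119, 0.238 and 0.239) and without the Pinot Meunier L2 leaf pool (3.72, 0.118).

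LOC100244406 and LOC100260238 were lower in tendrils. LOC100244406 had 6.22, 8.51 and 13.4 RPKM in tendrils and 38.7 and 122 RPKM in the leaf pools, a change of -2.81 ± 0.45 (adjusted p = 0.00257). LOC100260238 had 6.69, 12.4 and 6.61 RPKM in tendrils and 26.5 and 40.9 RPKM in the pools, a change of -1.88 ± 0.33 (adjusted p = 0.00449). No tendril overlapped a leaf pool for either gene. Without the tendril of node 1 or 3 the change of LOC100260238 was -1.34 (adjusted p of 0.06 and 0.059). LOC100247840 had 11.4, 11.3 and 8.03 RPKM in tendrils and 12.4 and 33.7 RPKM in the pools, also without overlap, but was not called (adjusted p = 0.135).

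With genotype as a block, which leaves only the Pinot Meunier L2 libraries to carry the contrast, 5 members were called, 1 higher and 4 lower, against 1.09% and 5.7% of all genes. The leaf side of that fit is 1 library, assumed to vary like the others. The members called were LOC100262405 (1.59 ± 0.29), LOC100244406 (-3.62 ± 0.36), LOC100260238 (-2.18 ± 0.39), LOC100247840 (-1.64 ± 0.29) and gene 100262378 (-5.28 ± 0.46). The call of gene 100262378 rests on the 862 RPKM of that leaf pool. The median change of the members was 0.16 in that fit and -0.16 over all genes. LOC100262405, LOC100244406 and LOC100260238 were called both with and without the block, and the other 5 genes called without it were not called with it.

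**Figure D3:**
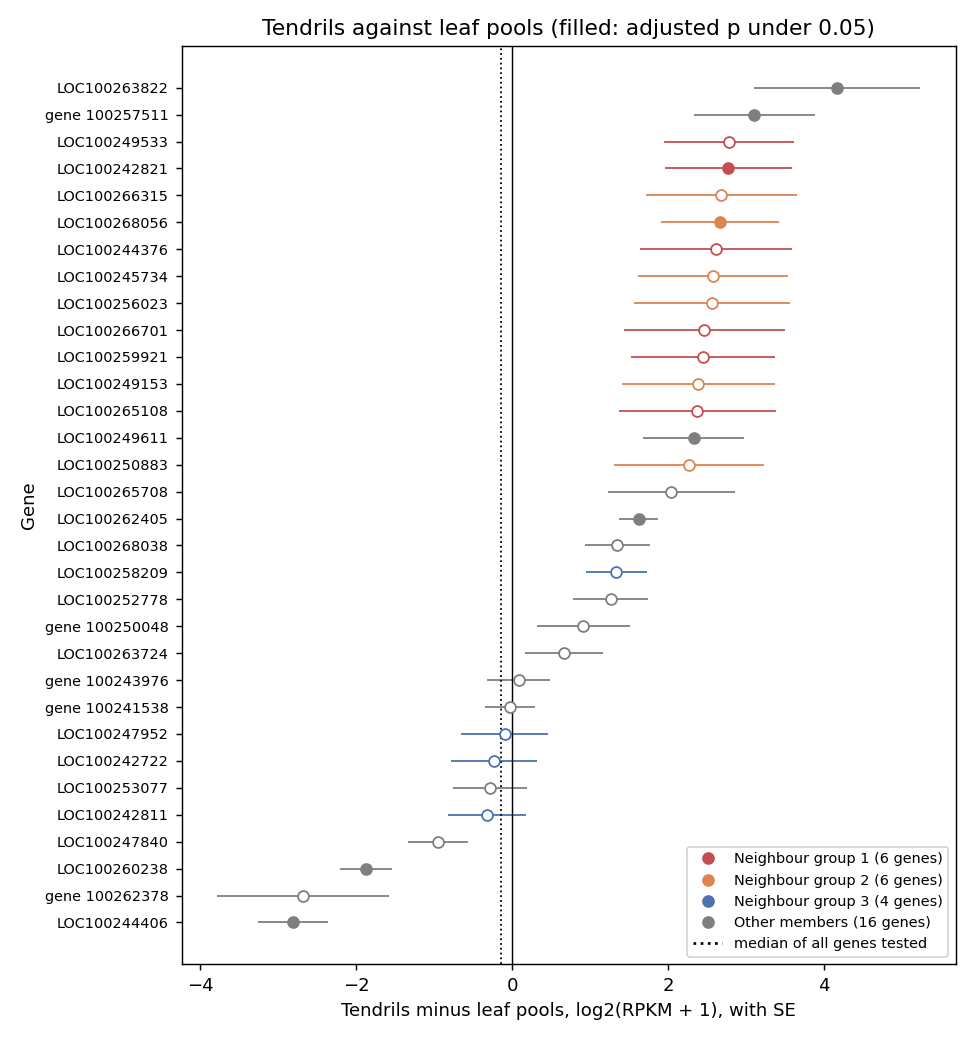
Points give the difference between tendrils (at node 2 of the fitted line) and the leaf pools on the log2(RPKM + 1) scale for each member, bars its standard error, and filled points the 8 members with an adjusted p under 0.05. The dotted line is the median of all genes tested (-0.14), and colours mark the neighbour groups.

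Along the tendril, each node had 1 library. A linear slope over nodes was called by limma for 0 of the 32 members and for 0 of 19761 genes (0%), and at an unadjusted p under 0.05 for 1 member, LOC100265708, and 971 genes. LOC100265708 had 368, 465 and 49.6 RPKM at nodes 1, 2 and 3. A straight line cannot describe a peak or a dip at node 2, and such a shape adds to the error of the slope. Node 2, the shallowest library, was the highest tendril in 17 members and the lowest in 10. The shares over all genes were not worked out, and neighbouring members may be copies, so these counts are descriptions only. The peak was shared by all 6 genes of the second group and by 4 of the 6 of the first, and the dip by the 4 genes of the third group and by LOC100263822, gene 100257511, LOC100252778 and LOC100268038, among others. LOC100252778 had 20.0, 6.06 and 27.6 RPKM and LOC100268038 had 24.5, 9.45 and 26.4 RPKM in the tendrils of nodes 1, 2 and 3. With no second library at any node, a node effect and a library effect cannot be told apart.

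**Figure D4:**
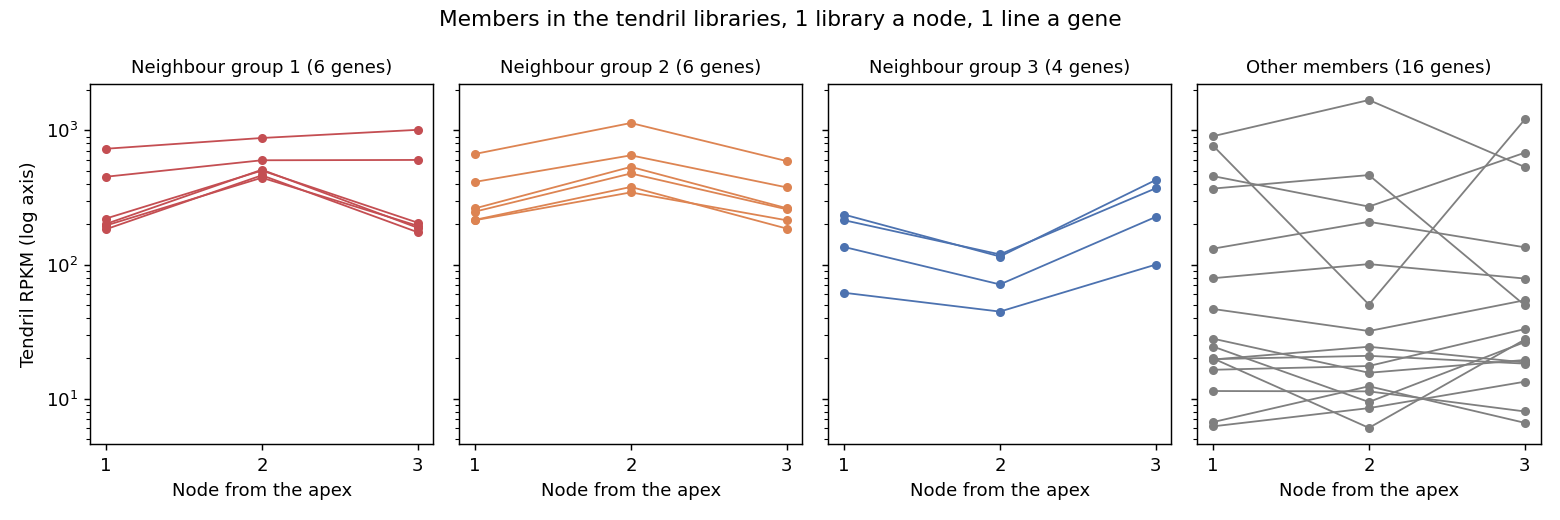
Each line is a member, with its RPKM (log axis) in the tendril libraries of nodes 1, 2 and 3, 1 library a node, split by neighbour group. Genes of the second group peak at node 2 and those of the third dip there, and both shapes occur among the 16 other members.

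Within inflorescences, where low values were part of the choice, the slope from node 1 to 3 was called for 0 of 32 members, in a test that called 15% of all genes (6.34% rising and 8.64% falling), and 0 members against 6671 of 19761 genes (33.8%) passed an unadjusted p under 0.05. The median slope was 0.13 per node over the members and -0.04 over all genes. Low values were chosen, and adding 1 before taking logs flattens differences near or below 1 RPKM. The error of this slope was also pooled over all 11 libraries, among them the 2 leaf pools, which differed widely in many members. In that model the SE was 0.33 for gene 100250048 and 0.26 for LOC100253077, against 0.18 and 0.11 with the inflorescences fitted alone. For these reasons the members' count cannot be read against that of all genes. With the inflorescences fitted alone 2 members were called, both falling with node, and 8 passed an unadjusted p under 0.05, against 8458 genes (42.8%). Gene 100250048 had 37.0 and 20.9 RPKM at node 1, 25.8 and 28.0 RPKM at node 2, and 11.4 and 11.6 RPKM at node 3, in 06C021V0046 and 06C008V0003 respectively, a slope of -0.60 ± 0.18 (adjusted p = 0.0438, limma). LOC100253077 was the other, at -0.51 ± 0.11 (adjusted p = 0.0173). With a pseudocount of 0.1 LOC100262405 was called (1.01 ± 0.30, adjusted p = 0.0492). With the genotype block LOC100253077 alone among the members was called (-0.51 ± 0.15 per node, adjusted p = 0.0441). LOC100253077 had 3.58 and 3.80 RPKM at node 1, 1.95 and 2.59 RPKM at node 2, and 1.47 and 1.19 RPKM at node 3, in the same order. The highest inflorescence value lay at node 3 in 14 of the 32, a count whose share over all genes was not worked out. The slopes in inflorescences and tendrils differed, in the same model, for 0 members and 3 of all genes (0.0152%), and for 0 members and 796 genes at an unadjusted p under 0.05.

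The picovine genotypes differed for 1 member, in a comparison of the 6 inflorescence libraries that called 19.7% of all genes, 8.76% higher and 10.9% lower in 06C021V0046. Gene 100243976 was lower in 06C021V0046 by 0.80 ± 0.21 on the log2 scale (a change of -0.80, adjusted p = 0.0398). It had 7.23, 10.6 and 6.53 RPKM at nodes 1, 2 and 3 of 06C021V0046 and 9.91, 17.0 and 18.5 RPKM in 06C008V0003, so the second genotype was higher at each node. At an unadjusted p under 0.05, 10 members passed, against 7765 genes (39.3%). In 12 members 06C021V0046 was higher at all 3 nodes and in 3 members 06C008V0003 was, against 21.8% and 38.9% of all genes tested. The rule held these inflorescence values low, and adding 1 before taking logs flattens differences near or below 1 RPKM. The members' counts in this comparison therefore cannot be read against those of all genes. Without any 1 library of node 2 or 3, gene 100243976 was no longer called (adjusted p between 0.117 and 0.129), and no other member was.

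Named genes were then placed against the same rule. None of the 119 measured genes on 13 lists of named genes (photosynthesis, carotenoid, heat shock, aquaporin, flavonoid, stilbene, defence, sugar transport, ion transport, gibberellin, other hormones, cell wall, floral) was a member. Their median ratio of the lowest leaf or tendril value to the highest inflorescence value was 0.203, and 6 of the 119 had a ratio of at least 1. As only 32 of 25771 genes were members, finding none among 119 says little about these lists. Genes under 5 RPKM in any leaf or tendril library could not be members. Some, such as HT9 and MADS2, had 0 RPKM in at least 1 of these libraries, which lowers the median ratio. Among all genes with a name and at least 5 RPKM in the high libraries, MADS8, the grapevine SOC1 that promotes flowering in Arabidopsis, came closest, at 2.28. It had 125 and 113 RPKM in the leaf pools, 47.0, 37.0 and 68.1 RPKM in tendrils and at most 16.3 RPKM in inflorescences. HSP101, a heat shock chaperone, was next at 1.88, with 25.6 and 251 RPKM in the leaf pools, 483, 557 and 229 RPKM in tendrils and 1.45 to 13.6 RPKM in inflorescences. Its leaf pools differed in the same direction as those of the first and second groups. That direction was shared by 41.6% of the 11150 genes with at least 5 RPKM in every leaf and tendril library. NADP-ME, the malic enzyme, followed at 1.66.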

How the data were processed

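Single-end mRNA libraries were sequenced, per the labels' protocols. The authors deposited 1 RPKM value per gene number and library, a unit taken from the deposited files' labels. Per the submitters' processing notes, Bowtie 0.12.7 and TopHat 1.2.0 were used. Neither build nor annotation nor counting tool is given in the sources used here, so no coordinates are printed, and the RefSeq table of ASM3070453v1 (72.4% of gene numbers matched) served for names, gene type and neighbours only. No nucleotide or protein sequence was used here.

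RPKM values of 98.8% of expressed genes were whole multiples of 1 read in every library (tolerance 0.01 read), which gave depth, read numbers and gene length. Read numbers carry counting error only.

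Values were tested as log2(RPKM + 1) with limma (3.58.1, R 4.3.3) and a variance trend, over 19761 genes with at least 1 RPKM in at least 2 libraries, a filter all members pass by their definition. One model over 11 libraries held 3 organ means at node 2 and node slopes in inflorescences and in tendrils. The picovine genotypes were compared in inflorescences alone, with node as a factor. Adjusted p values are two-sided Benjamini-Hochberg values over all genes. Tendril nodes had 1 library each, so their error rests on the spread pooled over all organs. The tendrils' own part of it is the departure of the 3 libraries from a straight line. No label says that libraries were separate plants, so p values measure only the spread between libraries. The script was tested on simulated data.

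Replicate numbers in inflorescences are the picovine genotypes. Their difference correlated across genes between nodes 1 and 2 (0.629), 1 and 3 (0.546) and 2 and 3 (0.689). Genotype was therefore the block in an alternative fit. The main model over 11 libraries had no genotype term and left this pairing out.

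The members and lists were chosen with earlier results of these data known. The naming rule took members with a symbol (0 found), the 5 highest, the 5 best separated, up to 3 called each way per test, and 3 genes on each side of the fold limit. Other members named were chosen after their values were seen. Groups of similar proteins were not analysed here. Alternatives changed the pseudocount, filter, scaling, block, libraries and rule limits. The test of the difference between the node slopes was added after the data were seen.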

Additional observations from a re-analysis of the deposited data

How the results depend on the processing

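The membership rule found 32 genes, 54 with a 2-fold limit, 20 with at least 10 RPKM, and 32 to 91 without 1 library, the highest without the 06C021V0046 leaf pool. It stayed within 1.5 times of 32 with a 4-fold limit (24), at least 1 RPKM (41), quantile normalization (26) and median-ratio scaling (29).

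For tendrils against leaf pools, 8 members were called. There were 4 with a pseudocount of 0.1, 3 without the filter, 5 with the replicate block, 0 when fitted on tendrils and leaves alone (6 at an unadjusted p under 0.05, against 3136 or 15.9% of all genes), and 2 to 19 without 1 library. The count was 2 without the tendril of node 1 or of node 3, 19 without the Pinot Meunier L2 leaf pool, and 5 without the 06C021V0046 pool or any 1 inflorescence library. Over all genes, 2527 were called with a pseudocount of 0.1 and 2388 of 24365 without the filter. Without the tendril of node 1 or of node 3, 1433 and 1427 of 19761 were called. Without 1 inflorescence library 1894 to 2358 were. The members' counts are not independent of the choice. No called change of a member reversed in any of the alternatives run. Over 18 alternatives LOC100244406 kept its call in 17, LOC100262405 in 16, LOC100260238 in 15, gene 100257511 in 12, LOC100263822 in 11, and LOC100242821, LOC100249611 and LOC100268056 in 3 each. Over all genes the median change, -0.14 with deposited values, was 0.05 with quantile normalization and 0.03 with median-ratio scaling.

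For the node slope in inflorescences, 0 members became 1 with a pseudocount of 0.1 or with the replicate block, 2 with inflorescences alone (LOC100253077 and gene 100250048), and 0 to 1 without 1 library. For the tendril slope 0 members became 0 to 2 without 1 library, and 2 (LOC100252778 and LOC100263822) without the tendril of node 1, where 1180 of all genes were called. For the picovine genotypes the 1 call became 0 without the filter, with all libraries or with no node term, 2 after quantile normalization (LOC100245734 in addition), LOC100245734 in place of gene 100243976 after median-ratio scaling, and 0 to 1 without 1 library.

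Counts over all genes moved too. The inflorescence slope was called for 2960 genes, 4588 with the replicate block, 5679 with inflorescences alone and 153 to 4529 without 1 library. Tendrils against leaves gave 2490, 1342 with the replicate block, 258 with their own libraries and 1159 to 3428 without 1 library. The genotypes gave 3892, 11 without the filter, 50 with all libraries, 13 with no node term and 254 to 2364 without 1 library. The cause was not tested. Values under 0.198 to 0.408 RPKM are under 3 reads for a gene of 1 kilobase, so inflorescence levels of many members rest on few reads.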
